A study of Mus musculus with 9 samples.

Results

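Non-methylated islands (NMIs) that sit between and over a pair of protein-coding genes transcribed away from each other were described in C127 cells. A member was an NMI that contained transcript 5′ ends of 2 different protein-coding genes on opposite strands, with the 5′ end of the minus-strand gene at the lower coordinate and at most 1000 bp from that of the plus-strand gene. Of the 13491 NMIs in the list, 998 (7.40%) met this rule, which is 10.4% of the 9581 NMIs that held any protein-coding 5′ end. They held 1030 gene pairs formed by 2021 genes, and together covered 1.49 Mb of the 14.2 Mb in the list. The rule used only the positions of NMIs and of annotated 5′ ends (GENCODE M21 on GRCm38, which shares its coordinates with mm10).

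The series comprised 9 samples of C127, a cell line described as mouse mammary epithelium, with no genetic change or treatment named for the BioCAP material. They were 1 BioCAP library, which enriches non-methylated DNA, with 1 input, 3 ATAC libraries with 1 input, and 3 libraries of nascent RNA labelled with 4sU. Only the NMI list made from the BioCAP library was used. The ATAC, RNA and input libraries were not analysed here. That list gave a position for each NMI with no score or read count, so that the depth behind an NMI was unknown, and there was no replicate. Of 9 epithelial marker genes (Cdh1, Epcam, Krt8, Krt18, Krt5, Krt14, Cldn3, Cldn4 and Cldn7), 0 had a 5′ end in an NMI. Of 6 mesenchymal marker genes, 5 had one (Vim, Cdh2, Zeb2, Fn1 and Col1a1) and Col3a1 did not. Over all 21938 protein-coding genes the share was 47.5%, and both marker lists are short. An NMI at a 5′ end is not a measure of expression, and a gene without an NMI is one without an NMI in this list.

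Divergent pairs, also called bidirectional promoters, are gene pairs arranged head to head, so that one stretch of DNA between them serves as the upstream region of both. In mammals they are found mainly at CpG islands, regions rich in the dinucleotide CpG that usually escape DNA methylation, and many of their genes have housekeeping roles such as DNA repair and mitochondrial function. BioCAP isolates such DNA through a CXXC zinc-finger domain, which binds CpG only when it is not methylated.

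The DNA between the 5′ ends is shown for 5 pairs known from the literature whose transcripts do not overlap in the NMI, because this is the sequence that both genes share. A further 2 stretches, chosen after their values were seen, come from the member of lowest CpG density (Psmd10/Atg4a) and from one of the 5 members of highest CpG density (B3galt6/Sdf4). All are given 5′ to 3′ on the plus strand of GRCm38 (mm10), from the base after the minus-strand 5′ end to the base before the plus-strand 5′ end, and capitals mark CpG.
Brca1/Nbr1 (chr11:101551956-101552148): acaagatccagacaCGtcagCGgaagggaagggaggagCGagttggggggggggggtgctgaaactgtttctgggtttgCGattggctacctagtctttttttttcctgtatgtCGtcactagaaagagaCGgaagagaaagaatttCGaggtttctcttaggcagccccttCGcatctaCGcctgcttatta
Mrps12/Sars2 (chr7:28741821-28741991): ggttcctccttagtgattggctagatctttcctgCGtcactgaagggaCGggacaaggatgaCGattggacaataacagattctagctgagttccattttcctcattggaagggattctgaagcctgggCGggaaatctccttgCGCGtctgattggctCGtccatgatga
Wrap53/Trp53 (chr11:69580256-69580358): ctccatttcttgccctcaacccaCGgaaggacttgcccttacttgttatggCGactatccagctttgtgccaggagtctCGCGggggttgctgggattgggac
Psmb1/Tbp (chr17:15499752-15499887): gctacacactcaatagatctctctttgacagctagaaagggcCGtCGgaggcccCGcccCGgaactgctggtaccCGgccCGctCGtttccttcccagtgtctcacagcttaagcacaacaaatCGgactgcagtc
Aurka/Cstf1 (chr2:172370536-172370680): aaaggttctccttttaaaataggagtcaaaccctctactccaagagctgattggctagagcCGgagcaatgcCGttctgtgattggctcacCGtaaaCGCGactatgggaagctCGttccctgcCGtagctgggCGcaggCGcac
Psmd10/Atg4a (chrX:140956729-140956906): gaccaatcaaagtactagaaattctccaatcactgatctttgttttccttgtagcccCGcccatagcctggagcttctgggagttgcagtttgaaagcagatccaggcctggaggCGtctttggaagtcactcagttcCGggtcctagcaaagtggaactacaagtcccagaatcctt
B3galt6/Sdf4 (chr4:155992650-155992871): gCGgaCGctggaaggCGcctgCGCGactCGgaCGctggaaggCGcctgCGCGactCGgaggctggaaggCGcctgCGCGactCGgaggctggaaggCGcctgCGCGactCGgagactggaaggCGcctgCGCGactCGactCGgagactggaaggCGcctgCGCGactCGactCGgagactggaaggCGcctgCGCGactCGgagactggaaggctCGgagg

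None of the 5 literature stretches overlapped an annotated exon. They ran from 103 bases at Wrap53/Trp53 to 193 bases at Brca1/Nbr1 and held between 4 and 9 CpG each. The density within them ranged from 3.88 CpG per 100 bp at Wrap53/Trp53 to 6.21 at Aurka/Cstf1. The stretch at Psmd10/Atg4a held 3 CpG in 178 bases (1.69 per 100 bp), and that at B3galt6/Sdf4 held 34 in 222 bases (15.3 per 100 bp). A single 20-base word occurred 7 times in the B3galt6/Sdf4 stretch, whereas no word of that length occurred more than 1 time in any of the other stretches shown. At B3galt6/Sdf4 and Psmd10/Atg4a, members picked for their CpG density, the NMI thus covered shared DNA that was dense and poor in CpG, respectively.

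To ask how regularly an annotated divergent pair lies in an NMI, all pairs were first taken from the gene annotation alone. There were 1232 such pairs, and both 5′ ends lay in a single NMI for 1030 of them (83.6%, exact 95% binomial interval 81.4 to 85.6%). A pair with its ends in separate NMIs was found 2 times, and in 1 further pair (Klhdc8b/Ccdc71) an NMI held an end of each gene but only in overlapping order. In 50 pairs (4.06%) only 1 gene had a divergent end in an NMI, and in 149 pairs (12.1%) neither had. Counted by gene, 88.7% of the 2410 genes in annotated pairs had a 5′ end in an NMI (2137 genes, interval 87.3 to 89.9%), compared with 42.4% of the 19528 protein-coding genes outside such pairs and 47.5% of all 21938. These intervals cover counting error only, since genes of a pair share their DNA and are not replicates, and the difference was not tested.

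The share of pairs in a single NMI was highest at the shortest distances between the 5′ ends and lowest beyond 500 bp. It was 90.2% of the 591 pairs at 1 to 100 bp (87.5 to 92.5%), 84.3% of the 319 with over 100 and up to 200 bp, 84.8% of the 132 with up to 300 bp and 80.9% of the 89 with up to 500 bp. Beyond 500 bp it was 43.6% (44 pairs, 33.7 to 53.8%). The interval of the widest spacing did not overlap that of any shorter one. An NMI that holds both ends has to be wider than their spacing, so that a lower share at long spacings is partly built in. How large that part is was not tested. Pairs with only 1 end in an NMI made up 1.35% of those at 1 to 100 bp and 25.7% of those beyond 500 bp. Pairs with neither end in an NMI made up 8.46% and 28.7% in the same order.

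**Figure D1:**
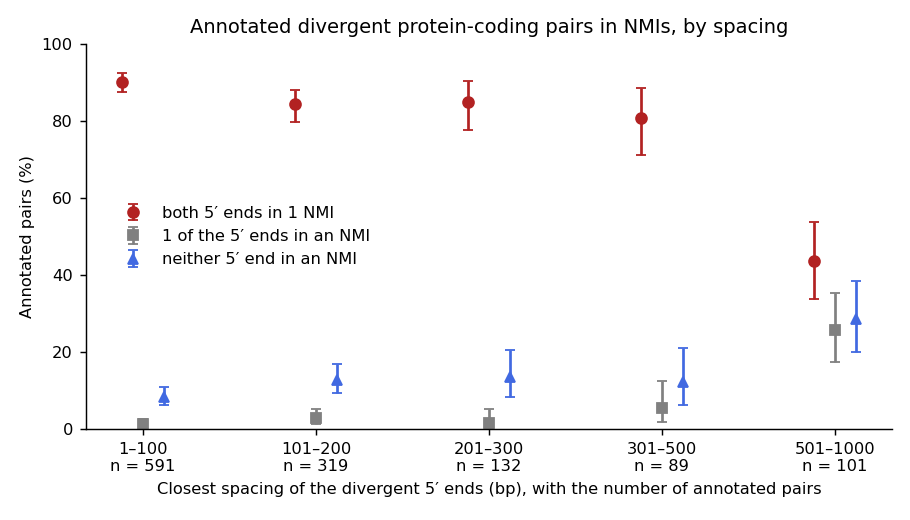
The plot gives, for each range of closest spacing in bp (horizontal axis, with the number of annotated pairs), the percentage of pairs with both, 1 or neither 5′ end in an NMI (vertical axis), and bars are exact 95% binomial intervals. The share in a single NMI stayed between 80.9% and 90.2% up to 500 bp and was 43.6% beyond, where 25.7% of pairs had only 1 end in an NMI.

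Genes of divergent pairs had more CpG around their outermost 5′ end than other genes, with a median of 6.49 against 3.50 CpG per 100 bp within 500 bp on either side. The share with an NMI was therefore read within ranges of CpG density. From 0 to 2 CpG per 100 bp, 40.2% of 174 pair genes had an NMI (32.9 to 47.9%) and 7.09% of 7689 other genes did (6.52 to 7.68%). From 4 to 6 the shares were 92.2% of 656 pair genes and 68.9% of 3246 other genes, and from 8 to 10 they were 96.8% of 410 and 80.7% of 1699. At 10 or more they were 97.0% of 234 and 81.4% of 1249. Pair genes thus had the higher share in each of the 6 density ranges, with intervals that did not overlap, although the difference was not tested. A pair gene counts as having an NMI through any of its 5′ ends, and a low density at the outermost end does not describe its other ends.

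**Figure D2:**
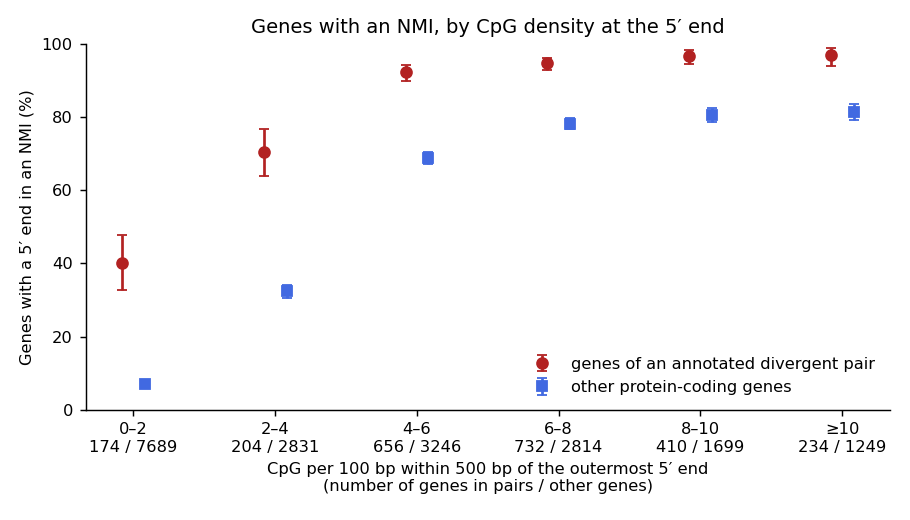
The plot gives the percentage of genes with a 5′ end in an NMI (vertical axis) by CpG per 100 bp within 500 bp of the outermost 5′ end (horizontal axis, with the number of genes), for genes of an annotated divergent pair (circles) and other protein-coding genes (squares), with exact 95% binomial intervals. The share rose from 40.2% to 97.0% for pair genes and from 7.09% to 81.4% for other genes.

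Most members held a simple arrangement. A single pair was found in 963 of the 998 NMIs and 2 pairs in the remaining 35, and 958 NMIs held exactly 2 protein-coding genes, 39 held 3 and 1 held 4. Because 3 pairs (Nsun6/Arl5b and Sphk2/Rpl18 among them) met the rule in 2 NMIs each through alternative 5′ ends, there were 1033 placements of the 1030 pairs. A further 4 pairs of symbols were counted 2 times because the annotation gives one symbol to 2 gene IDs. A 5′ end of a non-coding gene was present in 46 members (4.61%, 3.39 to 6.10%). The share was 5.73% of NMIs with a single protein-coding gene and no divergent gene (5.22 to 6.28%), with overlapping intervals. In NMIs with several protein-coding genes but no divergent pair it was 15.7% (11.2 to 21.1%). NMIs in which a single protein-coding gene was divergent to a non-coding gene hold such an end by definition and are in neither share. The differences were not tested. Genes named by a Gm number, a Rik clone or a sequence accession (such as AI597479), which are mostly predicted or little studied, took part in 109 pairs.

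The 5′ ends of a pair were usually close. The closest divergent distance had a median of 97 bp, with quartiles of 53 and 184 bp, and it was at most 100 bp in 531 placements, at most 300 bp in 916 and over 500 bp in 44. At the shortest spacing, the first bases of both transcripts were neighbours on opposite strands, which was annotated for Arfrp1/Zgpat, Bag4/Lsm1, Dcun1d3/Lyrm1, Pex13/Pus10 and Slc7a6os/Prmt7 (1 bp each). Pex13 encodes a peroxisomal membrane protein of protein import and Lsm1 a subunit of the complex that starts the decay of mRNA in the cytoplasm. The NMIs of the 5 pairs were 1195 to 1982 bp wide, on both sides of the median of 1418 bp over all members. The longest spacings were 987 bp at Btf3l4/Txndc12, 967 bp at Smim7/Tmem38a, 935 bp at Mrpl41/Pnpla7, 890 bp at Fhod1/Slc9a5 and 868 bp at Prune1/Mindy1. Just inside the limit, the first 3 of these lay in NMIs of 1549 to 2365 bp, and just outside it, 4 pairs at 1009 to 1085 bp lay in NMIs of 2119 to 3874 bp (Gpr108/Trip10, Sgsm2/Tsr1, Dirc2/Hspbap1 and Caskin2/Tsen54).

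When each gene was represented by its most upstream 5′ end in the NMI, the genes did not overlap in 721 placements and did overlap in 312. In those 312 some transcripts of the partners are transcribed across one another, and the pair is divergent only through other annotated ends. Among the placements without overlap, the distance between the genes had a median of 117 bp and quartiles of 62 and 216 bp. The deepest overlap, at Brd2/H2-DMa, corresponded to a distance of -3093 bp.

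Members were wider than other NMIs with protein-coding 5′ ends. Their median width was 1418 bp (exact 95% interval of the median 1393 to 1456 bp), with quartiles of 1122 and 1773 bp and a range of 184 to 5399 bp. The 7500 NMIs with a single protein-coding gene and no divergent gene had a median of 1117 bp (1104 to 1129 bp), and the 223 NMIs with several protein-coding genes but no divergent pair had a median of 1205 bp (1138 to 1279 bp). The 860 NMIs in which a single protein-coding gene was divergent to a non-coding gene had a median of 1388 bp (1325 to 1424 bp), an interval that overlapped that of the members. Narrow islands, at or below the lower quartile of all NMIs (572.5 bp), made up 0.802% of members (8 NMIs) and 7.24% of NMIs with a single gene. The share of NMIs of at least 2500 bp was 3.71% of members and 3.32% of NMIs with a single gene, with overlapping intervals, and 8.84% of those with a divergent non-coding gene. A wide NMI can hold more 5′ ends than a narrow one and has to be wider than the spacing, so that the rule itself favours width, and no test of the difference was made.

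Width was lowest at the shortest spacings and highest beyond 500 bp. The 522 members whose 5′ ends lay at most 100 bp apart had a median width of 1337 bp, compared with 1469 bp for the 262 with up to 200 bp, 1533 bp for the 106 with up to 300 bp, 1506 bp for the 70 with up to 500 bp and 1966 bp for the 38 beyond 500 bp. Once the spacing was subtracted, the median of what remained lay between 1127 and 1328 bp in all 5 ranges. Across the 998 members, which share one library and one peak call, Pearson's r between spacing and width was 0.263.

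In CpG content, members were slightly less dense than NMIs with a single gene. The median was 6.43 CpG per 100 bp (6.34 to 6.53) in members, 6.93 (6.87 to 6.99) in NMIs with a single gene and 7.21 (7.01 to 7.39) in those with a divergent non-coding gene. The GC content was also lowest in members, with medians of 58.9%, 61.1% and 60.7% in the same order. The observed/expected CpG ratio, which corrects CpG for GC content, was 0.762 in members (0.752 to 0.770) and 0.759 in NMIs with a single gene (0.755 to 0.762), with overlapping intervals. In NMIs with a divergent non-coding gene the ratio was higher, at 0.792 (0.782 to 0.803), with an interval that did not overlap that of members. A GC content of at least 55% together with a ratio of at least 0.65, as in a common definition of CpG islands, was met by 69.2% of members (66.3 to 72.1%) and 71.9% of NMIs with a single gene. Of NMIs with a divergent non-coding gene, 78.1% met it (75.2 to 80.9%). Repeats covered a median of 5.43% of a member and 5.74% of an NMI with a single gene.

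Of the bases in members, 54.2% were annotated as exon in any transcript, 38.9% as intron and 6.86% as lying outside genes. Per NMI the exonic share ran from 7.96% to 100%, with a median of 54.3%. The stretch that lies in no gene was thus the smallest portion, and had a median of 3.33% per NMI.

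Members reached about equally far into both genes. The NMI extended beyond the 5′ end of the pair by a median of 596 bp into the minus-strand gene and 622 bp into the plus-strand gene, and the minus-strand side was the longer in 486 members and the plus-strand side in 511. Individual members were often lopsided. The sides differed by a median of 297 bp and by over 500 bp in 273 members, and in 31 members one side was under 100 bp. A side of over 1000 bp was found in 259 members, but only 19 members had it on both sides.

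The position of the 5′ end within its NMI separated pairs from single genes. Each of the 2021 pair genes was measured in every member that held it in a pair, which gave 2032 values. From the most upstream 5′ end of the gene, the NMI extended a median of 697 bp upstream (681 to 720 bp) and 675 bp downstream (654 to 691 bp). For the single genes it extended 329 bp upstream (322 to 335 bp) and 741 bp downstream (731 to 752 bp). Genes with a divergent non-coding partner had 476 bp upstream and 865 bp downstream. At pairs without overlap the values were 760 bp upstream and 598 bp downstream, so that the reach into each gene was shorter than at single genes while the NMI as a whole was wider. The upstream side of a pair gene holds its partner by construction, and the difference was not tested.

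Base composition followed the same shape. From 250 to 300 bp upstream of the 5′ end, 91.6% of pair genes were still within the NMI, with a mean of 6.94 CpG per 100 bp, compared with 61.9% and 3.87 for single genes. Genes with a divergent non-coding partner lay in between, with 80.9% and 5.33. The upstream side of a pair gene holds its partner by construction, so that part of this coverage is built in. Within the first 50 bp of the transcript the means were 9.15 for pair genes and 10.3 for single genes, so that the CpG profile of pairs was flatter and lower at its height. The GC skew, the excess of G over C relative to their sum on the strand of the transcript, was 0.0715 over the first 50 bp of pair genes and 0.0871 over that of single genes. From 150 to 200 bp upstream it was -0.0808 for pair genes, -0.0463 for genes with a divergent non-coding partner and -0.0114 for single genes. Single genes with no divergent gene thus also had a negative mean there, and the part of the partner gene in these values was not tested.

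**Figure D3:**
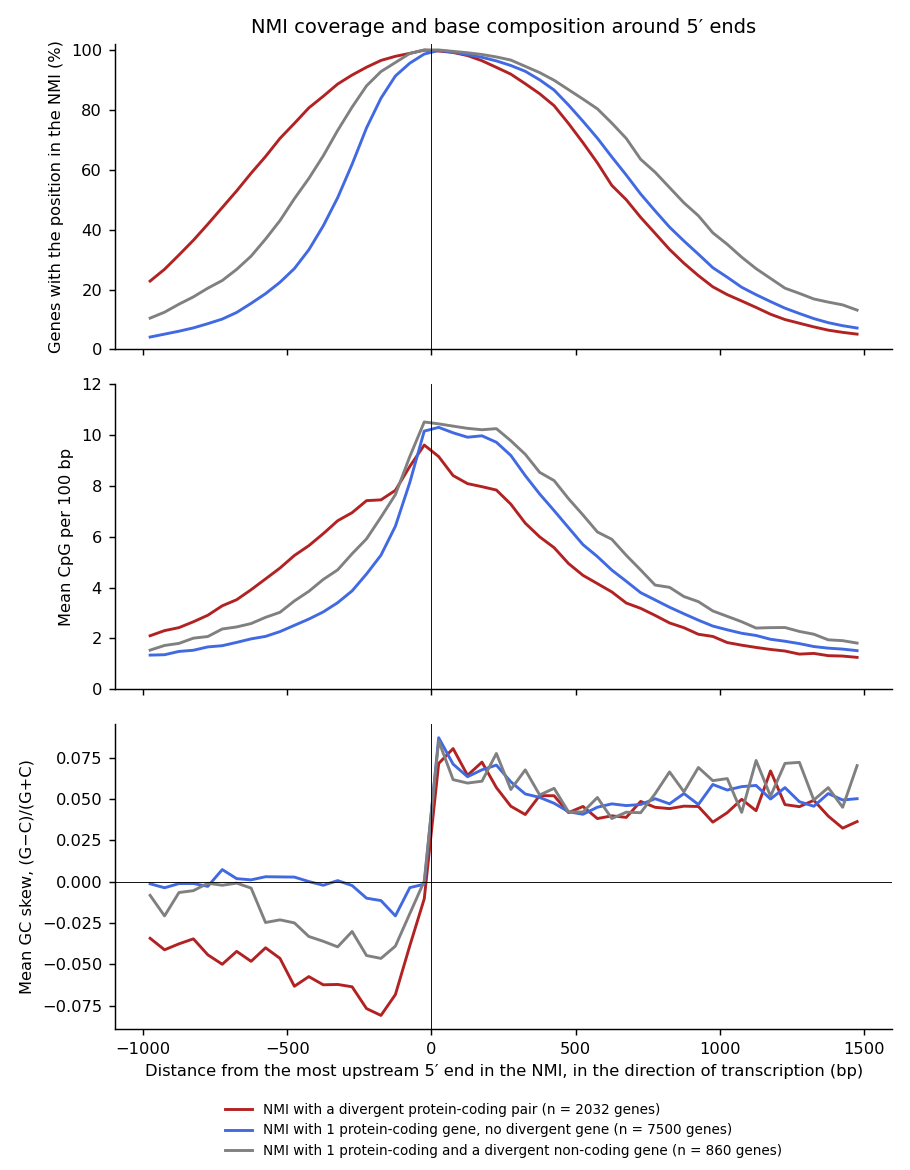
The 3 panels share a horizontal axis, the distance in bp from the most upstream 5′ end in the NMI in the direction of transcription, and give the percentage of genes whose NMI covers the position, the mean CpG per 100 bp and the mean GC skew in steps of 50 bp for 3 classes of NMI. Pair genes (red) remained covered further upstream, with 91.6% at 250 to 300 bp against 61.9% of single genes (blue), and their skew fell to -0.0808 upstream, where that of single genes was -0.0114. Genes with a divergent non-coding partner (grey) lay in between at the same positions, with 80.9% and -0.0463.

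The stretch between the ends could be examined by itself at 588 pairs without overlap and with at least 50 bp between the ends. Its median density was 8.16 CpG per 100 bp with quartiles of 6.03 and 10.96, compared with 7.33 in the first 300 bp of the minus-strand gene and 7.67 in that of the plus-strand gene. The observed/expected CpG ratio had medians of 0.865, 0.795 and 0.813 in the same order. The stretches compared differ in length and in their distance from the 5′ ends. Over all pair genes the mean density fell from 9.15 CpG per 100 bp in the first 50 bp to 7.28 at 250 to 300 bp. The higher density between the ends is therefore not a comparison at equal distance, and the part of distance was not tested. The skew between the ends centred on 0 (median -0.00431), while in both genes it was positive on their own strand (medians 0.0893 and 0.0899).

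The widest member spanned 5399 bp (chr17:34118086-34123484) and held the 5′ ends of Brd2, which encodes a bromodomain reader of acetylated histones, and H2-DMa, which encodes a subunit of the factor that loads peptides onto MHC class II. It was lopsided, with 4548 bp on the side of Brd2, and 74.7% of it was exonic. Tshz1/Zadh2 followed at 4696 bp, with 2786 bp over Tshz1, a gene for a zinc-finger transcription factor. Cdk5, a cyclin-dependent kinase best known from neurons, shared 3969 bp (chr5:24422934-24426902) with the anion exchanger gene Slc4a2, and 3065 bp of that lay on the side of Slc4a2. At Wrap53/Trp53 the NMI of 3626 bp (chr11:69578448-69582073) extended 1807 bp over Wrap53, whose product carries telomerase RNA to Cajal bodies, and 1714 bp over Trp53, which encodes p53.

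The other members among the 10 widest measured between 3420 and 3596 bp. They were Srgap2/Fam72a (3596 bp), Nabp2/Rnf41 (3569 bp), Fbxl12/Ubl5 (3515 bp), Nab2/Nemp1 (3500 bp), Cramp1l/Ift140 (3432 bp) and Cd3eap/Ppp1r13l (3420 bp). Their CpG density varied from 4.12 per 100 bp at Nabp2/Rnf41 to 7.37 at Cramp1l/Ift140. Fbxl12/Ubl5 was annotated as exon over 98.2% of its length, whereas Srgap2/Fam72a was exonic over 39.1% and had 15.3% outside genes. The narrowest members were Tbc1d16/Ccdc40 at 184 bp, Plgrkt/Cd274 at 288 bp and Mfap1a/Wdr76 at 337 bp. Cd274 encodes the immune checkpoint ligand PD-L1. In each of these 3 NMIs the ends lay 58 to 73 bp apart.

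A list of 21 divergent pairs known from the literature, mostly on human genes, was followed through the same steps. Of these, 19 had divergent 5′ ends within 1000 bp in the mouse annotation, and 18 lay with both ends in 1 NMI. Over all 1232 annotated pairs the share in 1 NMI was 83.6%, and the difference was not tested. The NMIs of the 18 pairs ranged from 857 to 3626 bp, with a median of 1539 bp, and 12 of the 18 were wider than the median member. The 2 pairs without divergent ends under the rule were Col4a5/Col4a6 and Dtx3l/Parp9, and the pair with only 1 end in an NMI was Col4a4/Col4a3.

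Some listed pairs hold genes of genome maintenance. Brca1, which acts in homologous recombination, shared an NMI of 2526 bp (chr11:101551322-101553847) with Nbr1, a receptor of selective autophagy, at a spacing of 194 bp. Atm, the kinase that signals DNA double-strand breaks, and Npat, a coactivator of histone genes, shared 1779 bp (chr9:53536248-53538026) with 307 bp between their ends. Prkdc, the catalytic subunit of DNA-dependent protein kinase, lay 466 bp from Mcm4, a subunit of the replicative helicase, in an NMI of 1218 bp (chr16:15636955-15638172). Fen1, the flap endonuclease of lagging-strand synthesis, and Tmem258 lay 49 bp apart in 1181 bp. The stretch shown above for Brca1/Nbr1 thus made up a small part of its NMI, which was the least dense of these at 3.96 CpG per 100 bp, while that of Prkdc/Mcm4 was the densest at 7.55.

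In other listed pairs the partners work in the same process. Hspd1 and Hspe1, which encode the mitochondrial chaperonin and its co-chaperonin, lay 71 bp apart in 1605 bp (chr1:55087187-55088791) at 9.60 CpG per 100 bp, the highest density of the 18. Ppat and Paics, enzymes of purine synthesis, were 142 bp apart in 1460 bp. Sars2, the mitochondrial seryl-tRNA synthetase, and Mrps12, a protein of the mitochondrial ribosome, were 172 bp apart in 1351 bp. Psmb9, a subunit of the immunoproteasome, and Tap1, a peptide transporter of antigen presentation, were 38 bp apart in 1347 bp. Col4a1 and Col4a2, whose chains assemble together in basement membranes, were 116 bp apart in 1999 bp (chr8:11312128-11314126).

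The remaining listed pairs join genes of different functions. Cbx3, a heterochromatin protein 1 gene, and Hnrnpa2b1, an RNA-binding protein gene, lay in 2836 bp (chr6:51468589-51471424) at a spacing of 466 bp and at 9.17 CpG per 100 bp. Tbp, the TATA-binding protein gene, and the proteasome gene Psmb1 lay in 857 bp, the narrowest NMI of the 18. Aurka, a mitotic kinase gene, and Cstf1, a gene of mRNA 3′ end cleavage, lay in 1463 bp. The widest spacing of the 18 was 691 bp at Pdcd10/Serpini1 (NMI of 1556 bp) and the closest was 22 bp at Surf1/Surf2 (1522 bp). Sirt3/Psmd13 (1116 bp) and Htra2/Aup1 (2229 bp) had overlapping outermost ends. So did Hspd1/Hspe1, Surf1/Surf2, Col4a1/Col4a2, Ppat/Paics, Fen1/Tmem258, Psmb9/Tap1 and Tk1/Afmid among the 18. Tk1/Afmid had the lowest density of the 18, at 3.04 CpG per 100 bp in 2104 bp, with 1800 bp of its NMI on the side of Tk1, the thymidine kinase gene.

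**Figure D4:**
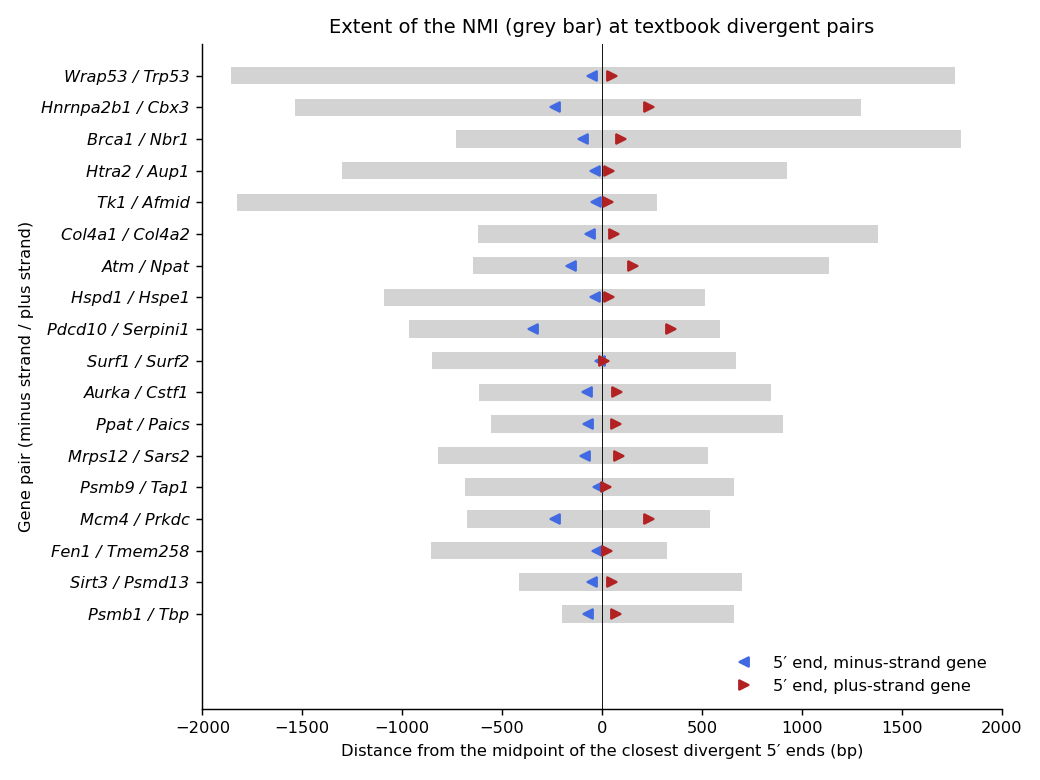
Grey bars show the extent of the NMI in bp around the midpoint of the closest divergent 5′ ends (horizontal axis) at 18 pairs known from the literature (vertical axis), and triangles show the 5′ ends. All bars contain both ends, as the rule requires, and widths run from 857 bp at Psmb1/Tbp to 3626 bp at Wrap53/Trp53, with the ends far off centre at Tk1/Afmid.

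Extremes of CpG density were spread over the genome. The highest values were 12.9 CpG per 100 bp at Fancf/Gas2 (1171 bp, chromosome 7), 12.6 at Lcmt2/Adal (460 bp), 12.1 at Bend6/Dst (1217 bp), 11.8 at Nol4l/4930404H24Rik (422 bp) and 11.7 at B3galt6/Sdf4 (1659 bp). Fancf encodes a subunit of the Fanconi anaemia core complex. The lowest were 2.65 at Psmd10/Atg4a (566 bp, chromosome X), 3.04 at Tk1/Afmid, 3.05 at Orc4/Mbd5 (2461 bp), 3.16 at Rad54l/Pomgnt1 (760 bp) and 3.30 at Hmbox1/Ints9 (2245 bp). Orc4 encodes a subunit of the origin recognition complex and Rad54l a motor protein of homologous recombination. The 5 densest islands were 422 to 1659 bp wide and the 5 least dense ones 566 to 2461 bp.

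The member with the most protein-coding genes held 4 (chr3:96219541-96221658, 2118 bp), namely the histone genes Hist2h2ab, Hist2h2ac and Hist2h2be and Bola1, a gene of mitochondrial iron-sulfur proteins. It contained 2 divergent pairs, Bola1/Hist2h2ab at 156 bp and Hist2h2ac/Hist2h2be at 239 bp. The members with 3 genes that the naming rule took in were 4933427D14Rik/Gm43951/Txndc17, Alg3/Eef1akmt4/Gm49333, Arfip2/Gm45799/Timm10b and Arl16 with 2 gene IDs of the symbol Hgs. In each of these 4 the third gene is a predicted model or a second ID for the same symbol.

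Across all protein-coding genes 9.21% lay in a divergent pair NMI, and the shares of 9 listed groups with housekeeping roles were higher. Only a gene of an annotated divergent pair can lie in such an NMI, and 2410 of all 21938 genes were in one. For genes of the mitochondrial ribosome it was 29 of 78 (37.2%, exact interval 26.5 to 48.9%), for DNA repair and checkpoint genes 34 of 92 (37.0%, 27.1 to 47.7%), for subunits and assembly factors of respiratory complex I 16 of 45 (35.6%, 21.9 to 51.2%) and for DNA replication genes 18 of 55 (32.7%, 20.7 to 46.7%). Lower shares were seen for aminoacyl-tRNA synthetase genes (10 of 36, 27.8%), core and linker histone genes (21 of 83, 25.3%), heat shock, DnaJ and chaperonin genes (20 of 80, 25.0%), proteasome genes (11 of 50, 22.0%) and cytosolic ribosomal protein genes (14 of 80, 17.5%). Most genes of these lists had an NMI, and among all protein-coding genes with an NMI 19.4% lay in a divergent pair NMI. Among the listed genes with an NMI the share was 37.2% for the mitochondrial ribosome, 38.2% for DNA repair and 38.1% for complex I. It was 34.4% for histones, 32.7% for replication, 31.7% for heat shock, DnaJ and chaperonin genes and 27.8% for tRNA synthetases. The lowest shares were 23.4% for the proteasome and 18.9% for the cytosolic ribosome, the 2 closest to the share over all genes with an NMI. No intervals were made for these shares. Of the 6 type IV collagen genes, which encode basement membrane chains, 2 lay in such an NMI (33.3%, 4.33 to 77.7%). Genes in annotated pairs numbered 29 for the mitochondrial ribosome, 38 for DNA repair, 19 for complex I, 19 for replication and 10 for tRNA synthetases. The numbers were 27 for histones, 26 for heat shock, DnaJ and chaperonin genes, 12 for the proteasome and 15 for the cytosolic ribosome. The shares thus also reflect how often genes of a list are arranged in pairs. How large that part is, and the lists themselves, were not tested.

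At the other end, 22 of 394 Zfp zinc-finger genes (5.58%, 3.53 to 8.33%) lay in such an NMI. Among the 252 Zfp genes with an NMI the share was 8.73%, compared with 19.4% of all protein-coding genes with an NMI. None of the 39 Hox genes lay in such an NMI (0%, up to 9.03%), and 12 of them had an NMI. None of the 1135 olfactory receptor genes had any NMI. Over all protein-coding genes 47.5% had an NMI. Neither the Hox nor the olfactory receptor list contained a gene of an annotated divergent pair. Hox genes are arranged head to tail within their clusters.

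Among mitochondrial ribosomal protein genes, all 29 that are in an annotated divergent pair lay in a member, as did 83.9% of all 2410 genes in such pairs (2021 genes). The widest of their NMIs were those of Mrps18b with Ppp1r10 (2326 bp, 45 bp apart), Mrps34 with Eme2 (2144 bp, 29 bp), Mrpl14 with Tmem63b (2112 bp, 63 bp) and Mrps7 with Gga3 (1826 bp, 32 bp). Mrpl46 and Mrps11, which encode proteins of the large and the small subunit, were paired with each other 30 bp apart in 1095 bp. For complex I the widest were Ndufa11 with Vmac (2072 bp), Ndufb3 with Fam126b (1657 bp), Ndufb9 with Tatdn1 (1541 bp) and Ndufs1 with Eef1b2 (1533 bp, 3 bp apart). These gene pairs were close, between 3 and 82 bp.

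Of the DNA repair genes, 34 of the 38 in annotated pairs lay in a member, beside 83.9% of all genes in annotated pairs. Polh, the polymerase that bypasses ultraviolet damage, shared 1833 bp with the nuclear export receptor gene Xpo5 at a spacing of 137 bp. Of the replication genes, 18 of 19 did, led by Orc4 with Mbd5 (2461 bp), Orc6 with Vps35 (2112 bp, 25 bp apart), Tk1 with Afmid and Mcm9 with the histone chaperone gene Asf1a (2028 bp, 109 bp apart). Each of these replication pairs overlapped at the outermost ends, with distances from -168 bp at Tk1/Afmid to -891 bp at Mcm9/Asf1a. The density at Mcm9/Asf1a was 8.93 CpG per 100 bp.

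For protein synthesis and folding, wide NMIs of aminoacyl-tRNA synthetase genes included those of Yars with S100pbp (1822 bp), Kars with the telomere gene Terf2ip (1714 bp) and Ears2 with Ubfd1 (1569 bp). Hars and Hars2, the cytosolic and mitochondrial histidyl-tRNA synthetases, faced each other 26 bp apart in 894 bp. Of chaperone genes the widest were Dnajc14 with Tmem198b (2556 bp), Hsp90b1 with Ttc41 (2336 bp, 302 bp apart), Cct3 with Tsacc (2250 bp) and Cct7 with Pradc1 (2182 bp). The ribosomal protein genes Rpl12 (2347 bp, with Lrsam1), Rpl35a (2280 bp, with Iqcg) and Rpl7a (1726 bp, with Med22) were each paired with a gene of other function. Rpl18 was paired with the sphingosine kinase gene Sphk2 in NMIs of 606 and 2022 bp. The proteasome genes Psma7 with Ss18l1 (2129 bp, 10.1 CpG per 100 bp), Psme2 with Rnf31 (1736 bp, 595 bp apart) and Psmc5 with Ftsj3 (1438 bp) lay in members as well.

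Histone genes were often paired within their own family. In 10 placements both genes were core histone genes, 9 on chromosome 13 and 1 on chromosome 3, and in 9 of them an H2A gene faced an H2B gene. These 10 NMIs were 1352 to 2160 bp wide with a median of 1695 bp, their ends were 176 to 660 bp apart with a median of 261 bp, and their density had a median of 5.60 CpG per 100 bp. The widest was Hist1h2bf/Hist1h2ad (2160 bp, 185 bp apart), followed by Hist2h2ac/Hist2h2be (2118 bp) and Hist1h2bl/Hist1h2ai (1948 bp, 279 bp apart). The exception was Hist1h2bh/Hist1h3f, an H2B and an H3 gene at 660 bp and 3.44 CpG per 100 bp. The spacing of histone pairs was longer than the median of 97 bp in all 10. Histone genes are near-identical copies, and reads without a unique position had been discarded, so that the extent of these NMIs is uncertain.

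Among Zfp genes the widest members were Zfp526 with Dedd2 (3123 bp, 810 bp apart), Zfp91 with Lpxn (2739 bp), Zfp664 with Ccdc92 (2404 bp, 10.4 CpG per 100 bp) and Zfp654 with Cggbp1, a gene for a protein that binds CGG repeats (2089 bp). Zfp668/Zfp646 was the only pair with both genes on the list (2047 bp, 16 bp apart).

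Motifs were searched as exact letters on both strands, from 250 bp before to 50 bp after the most upstream 5′ end in the NMI. For the share over all protein-coding genes, many of which have no NMI, the outermost annotated 5′ end was used instead. For 2 motifs the share was higher at pair genes than at single genes with intervals that did not overlap. The ETS site bound by GABP (CCGGAAGT) was present at 13.8% of 2032 pair promoters (12.3 to 15.4%), 7.95% of 7500 single promoters (7.34 to 8.58%), 9.53% of 860 promoters with a divergent non-coding gene (7.66 to 11.7%) and 4.70% of all 21938 protein-coding promoters. The YY1 site (AAGATGGCG) was present at 5.12% of pair promoters (4.20 to 6.17%), 2.80% of single promoters (2.44 to 3.20%) and 1.70% of all. At promoters with a divergent non-coding gene it was 3.26% (2.17 to 4.67%), an interval that overlapped that of pairs. The TATA box (TATAAA) was rarer at pairs, with 4.18% (3.35 to 5.15%) against 6.07% (5.54 to 6.63%) of single promoters and 12.6% of all. Promoters with a divergent non-coding gene had 5.0% (3.64 to 6.68%), an interval that overlapped that of pairs. Both promoters of a pair often share sequence and a match can count for each gene, so that these intervals are too narrow.

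For the other 7 motifs the intervals of pairs and single genes overlapped. The GC box of SP and KLF factors (GGGCGG) was found at 68.2% of pair promoters, 70.3% of single promoters and 43.0% of all. For the CCAAT box of NF-Y (CCAAT) the shares were 40.9%, 38.4% and 39.0%, for the E-box of USF and MYC (CACGTG) 10.6%, 10.96% and 7.75%, and for the NRF1 core (GCGCATGC) 6.30%, 6.09% and 3.71%. The CRE of CREB and ATF factors (TGACGTCA) was found at 4.48%, 3.67% and 2.43%, the CGCG element of BANP (CTCGCGAG) at 2.95%, 2.00% and 1.21%, and the first part of the ZNF143 site (ACTACAATT) at 0.787%, 0.907% and 0.497%. A GC box can overlap another GC box, and a CGCG element, CRE or E-box reads the same on both strands and was counted as 1 match.

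With a single 300-bp stretch per placement, centred between the 5′ ends so that no sequence was counted for both genes, the ETS site was found in 15.0% of 1033 placements (12.9 to 17.3%), the YY1 site in 6.0% (4.63 to 7.63%) and the TATA box in 4.26% (3.11 to 5.68%). In the stretches shown above, CCAAT on either strand was found 4 times at Mrps12/Sars2, 2 times each at Aurka/Cstf1 and Psmd10/Atg4a and 1 time each at Brca1/Nbr1 and Wrap53/Trp53. The GC box was found 1 time each at Mrps12/Sars2, Psmb1/Tbp and Psmd10/Atg4a. A match of letters is not evidence of binding.

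**Figure D5:**
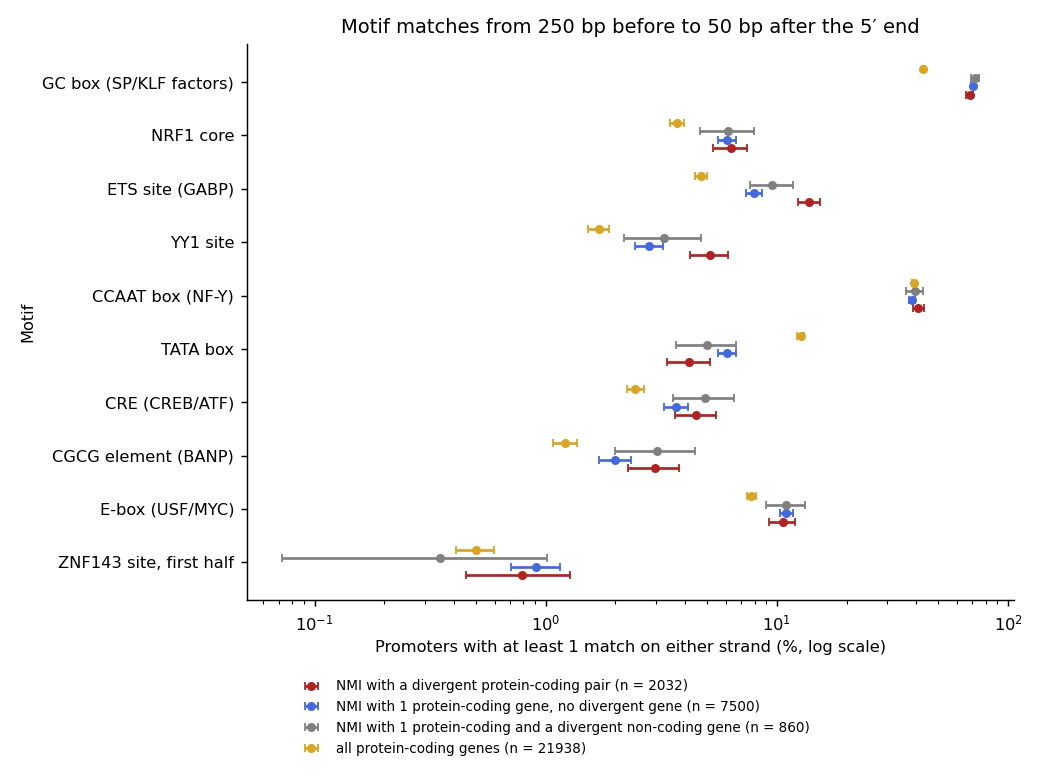
Points give the percentage of promoters with at least 1 match on either strand (horizontal axis, logarithmic) for 10 motifs (vertical axis) in 3 classes of NMI and in all protein-coding genes, with exact 95% binomial intervals. The pair class lies to the right of single genes at the ETS site (13.8% against 7.95%) and the YY1 site (5.12% against 2.80%) and to the left at the TATA box (4.18% against 6.07%). All protein-coding genes were searched at their outermost annotated 5′ end, and the 3 classes at the most upstream end in the NMI.

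Annotated pairs outside the members were poorer in CpG. In the 1000 bp around the midpoint of the closest 5′ ends, the median was 7.10 CpG per 100 bp for the 1030 pairs in 1 NMI, 4.30 for the 50 pairs with 1 end in an NMI and 2.80 for the 149 with neither. Genes named by a Gm number, a Rik clone or a sequence accession were in 37 of those 149 pairs and in 109 of the 1030. The pairs in separate NMIs were Urod/Hectd3 (904 bp apart, NMIs of 718 and 931 bp) and Zfyve26/Rad51b (978 bp apart, NMIs of 1013 and 634 bp). Urod encodes an enzyme of haem synthesis. The closest pairs with only 1 end in an NMI were Cbarp/Atp5d (16 bp, NMI of 1509 bp over the 5′ end of Atp5d), Pex3/Adat2 (30 bp), Dusp3/Cfap97d1 (43 bp), Ddx25/Pus3 (67 bp) and Col4a4/Col4a3 (72 bp, NMI of 436 bp at Col4a3). The closest pairs with neither end in an NMI were Lrtm2/Cacna2d4 (3 bp), Ndufb11/Rbm10 (3 bp, chromosome X), Trp53i13/Abhd15 (4 bp), Fam186b/Prpf40b (7 bp) and Gm3448/Gm3435 (7 bp). At Ndufb11/Rbm10 and Cbarp/Atp5d the surrounding DNA held 6.47 and 6.98 CpG per 100 bp, so that a pair could lack a shared NMI at densities typical of members. At Cbarp/Atp5d, however, the Cbarp end missed the NMI over Atp5d by at most the 16 bp between the ends. The other 4 named pairs with 1 end in an NMI likewise missed it by at most their spacing of 30 to 72 bp. Counting 5′ ends within 250 bp of an NMI raised the share of annotated pairs in 1 NMI to 86.0%.

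On the X chromosome 17 of 31 annotated pairs lay in 1 NMI (54.8%, 36.0 to 72.7%), compared with 1013 of 1201 on the autosomes (84.3%, 82.2 to 86.4%). Beside this, 27.1% of all 948 protein-coding genes on X and 48.9% of 20807 on autosomes had an NMI, and the median density around the pairs was 4.90 CpG per 100 bp on X and 6.70 on autosomes. The part of CpG density in the lower share on X was not tested. Among the autosomes the share of annotated pairs in 1 NMI ran from 72.2% of 54 on chromosome 10 to 95.8% of 71 on chromosome 8.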

How the data were processed

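Per the labels and the study's methods, non-methylated DNA of C127 cells was captured and sequenced. Reads were aligned by the authors to mm10 (Bowtie2), kept only where their position was unique, freed of duplicates (SAMtools) and used to call NMIs (MACS, named MACS2 in the processing notes). Tool versions and the use of the input as control were not given in the sources used here. The deposited values were a chromosome, start and end per NMI. Starts, counted from 0, were given counted from 1, and 2 NMIs off chromosomes 1 to 19, X and Y held no annotated gene used here. 5′ ends came from GENCODE M21 and sequence from GRCm38.p6 (RefSeq), read with Python 3.11.15, NumPy 2.4.6 and SciPy 1.17.1. Pair finding was tested on simulated data against a direct search. Intervals of shares are exact binomial ones (Clopper-Pearson, 95%) for counting error alone, and those of medians come from order statistics. With 1 library no test was made.

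Genes were named by rule: the 10 widest NMIs, the 5 shortest and longest spacings, the 5 highest and lowest CpG densities, the 5 NMIs with the most genes, listed literature pairs, the 4 genes in the widest NMIs of each list with all same-list pairs (up to 10), and the 5 closest annotated pairs of each kind outside members. The 3 narrowest members and the pairs next to the distance limit were named besides. Some genes and pairs that these rules take in, among them 2 literature pairs left out of that list, are not reported here. The members and lists were chosen with earlier results of these data known. Of 37 tRNA synthetase symbols 36 were in the annotation, as were 55 of 56 replication symbols.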

Additional observations from a re-analysis of the deposited data

How the results depend on the processing

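Of 41 alternative values of the counts, shares and medians, 31 stayed within their interval or within 1.5 times the count, and 10 moved. Using only the outermost 5′ end of each gene, or leaving out pairs whose outermost ends overlap, which is the same by construction, gave 636 members in place of 998, a share of annotated pairs in 1 NMI of 87.0% and a median spacing of 118.5 bp in place of 97 bp. The share was 87.2% at a limit of 500 bp, 76.0% at 2000 bp and 86.0% when 5′ ends within 250 bp of an NMI counted. Transcripts of type protein-coding alone gave a median spacing of 112.5 bp. The median width stayed between 1404.5 and 1437 bp and the median CpG density between 6.40 and 6.46 per 100 bp under every alternative run. With a window of 500 bp before to 100 bp after the 5′ end, the shares of all 10 motifs rose, to 16.1% for the ETS site and 7.19% for the YY1 site at pairs, against 9.31% and 4.23% at single genes. The TATA box rose to 9.15% at pairs and 16.7% at single genes.

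No paired analysis was possible because the result comes from 1 library without a test. The list holds no score, so that no stricter threshold could be set other than by width, and leaving out NMIs at or below the lower quartile of width (572.5 bp) left 990 members.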
